A study of Mus musculus with 4 samples.

Results

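DNA replication and mitosis genes are the transcripts that a cell makes when it copies its chromosomes and then divides. The set described here holds 44 genes of 28632 gene names on a mouse expression array. The members were listed by name and found as every non-control spot of the array files that carries a listed gene name, which gave 70 probes and 88 spots. The list itself was drawn up with earlier results of these data known. Of the 44 members, 15 act in DNA replication and S phase and 29 act in mitosis.

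Total RNA came from the cerebellum of mice at postnatal day 30. Mutants had the genotype mGfap-Cre; Dicer flox/flox and controls mGfap-Cre; Dicer +/flox, so the Cre and 1 floxed allele were common to both groups. The Cre is driven by a mouse Gfap promoter, which is active in astroglia, and all animals had a mixed strain background. There were 4 mutants and 4 controls, compared as 4 independent littermate pairs. Both animals of a pair shared 1 two-colour array, with the mutant in Cy5 in pairs 1 and 3 and in Cy3 in pairs 2 and 4. Whole tissue was used, so most of the RNA came from cells other than astroglia. Ratios below are log2 values of the mutant over its control littermate, where 1 is a doubling, and errors are SDs over the pairs (n = 4). Levels are log2 intensities normalized between arrays and are comparable between animals for 1 probe only, not between genes.

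Cells that enter the cycle switch on their genes in 2 waves. The first is driven by E2F transcription factors and holds the origin licensing factors, the MCM helicase, the replication clamp and the enzymes that supply nucleotides. The second, which peaks from late S phase to mitosis, holds the mitotic cyclins and kinases, the spindle motors and the kinetochore proteins. It is controlled by the DREAM and MMB-FOXM1 complexes through a promoter element named CHR. In the cerebellum the great burst of division is that of granule neuron precursors, which is over by the age studied here, and dividing cells are few afterwards.

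Promoters are shown first because the measurements below are read by wave. RefSeq windows (GRCm38.p6) from 250 bases before to 50 after the annotated start were searched on both strands. A window was found for 36 of the 44 members and the first listed was used. Tpx2, Foxm1, Mcm4, Gmnn, Aurkb, Ccne2, Ccna2 and Kif20a had none. The CHR letters TTTGAA stood in 18 of 24 mitotic windows, in 1 of 12 replication windows and in 18.1% of the windows of all 27025 genes in the table. The E2F-type letters TTTNGCG stood in 5 of 12 replication windows, in 1 of 24 mitotic windows and in 4.24% of all windows. The CCAAT box, searched as CCAAT, stood in 20 of 24 mitotic windows, in 8 of 12 replication windows and in 37.9% of all. CHR and CCAAT letters occurred together in 17 of the 24 mitotic windows and in 7.12% of all windows. A match describes letters only and does not show that a factor binds there.

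Stretches of 5 mitotic promoters and 1 replication promoter are printed below, 5′ to 3′ in the direction of the gene, as examples of these elements. Capitals mark the CHR letters TTTGAA (read as TTCAAA where they lie on the opposite strand), the CCAAT box (read as ATTGG on the opposite strand) and the E2F-type letters.
Mki67, chr7:135716465-135716574, minus strand: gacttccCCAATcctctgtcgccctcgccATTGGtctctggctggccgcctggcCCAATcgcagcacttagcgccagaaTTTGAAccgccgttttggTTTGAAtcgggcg
Cdc20, chr4:118437344-118437408, minus strand: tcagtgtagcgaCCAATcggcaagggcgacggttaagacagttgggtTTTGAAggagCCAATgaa
Top2a, chr11:99024190-99024294, minus strand: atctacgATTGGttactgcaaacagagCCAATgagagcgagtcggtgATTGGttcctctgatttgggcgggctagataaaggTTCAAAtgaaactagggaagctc
Cenpf, chr1:189688073-189688094, minus strand: cggcgggcagTTTGAAtcgctc
Cdca3, chr6:124830195-124830219, plus strand: gtggagggaagTTTGAAactccggg
Mcm6, chr1:128359711-128359825, minus strand: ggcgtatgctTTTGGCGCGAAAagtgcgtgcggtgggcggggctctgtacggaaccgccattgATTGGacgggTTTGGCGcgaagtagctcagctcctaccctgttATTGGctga
In the Mki67 stretch 3 CCAAT boxes precede 2 CHR elements. The Top2a stretch has the same order, with 3 boxes and then 1 element, but its full window does not. Upstream of the printed stretch, the Top2a window holds further CHR letters with CCAAT boxes on both sides of them. In the Cdc20 stretch, too, CCAAT boxes lie on both sides of the CHR element. Cenpf and Cdca3 carry the element just after the annotated start, and the CCAAT boxes of their windows lie upstream of the printed stretches. Mcm6 has no CHR letters, and its first run of capitals is a pair of overlapping E2F-type matches on opposite strands. Birc5 and E2f1 held none of the 3 motifs in their windows.

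The arrays held 41174 probes, of which 26398 to 28907 were well above background with mutant RNA and 26291 to 27718 with control RNA. With 4 arrays, their number limits the precision. All 12 listed markers of cerebellar neurons passed the filter on dim probes. Dicer1, the targeted gene, had ratios of 0.26, -0.27, 0.07 and 0.10 in pairs 1 to 4 (mean 0.04, limma adjusted p = 0.947). Its second probe averaged -0.06. Where these probes lie relative to the floxed part was not established, so they do not check the deletion. The deposited labels state that pairs were independent, and nothing in the files told litters from arrays, so pair and array cannot be told apart.

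A gene was tested where its probe stood well above background in all 4 mutants or in all 4 controls. Of the members, 34 were tested, 20 of 29 mitotic and 14 of 15 in replication. Nusap1 and Foxm1 passed through the mutant channel only, with the control channel above background on 2 and 3 arrays. The limma fit over 18025 genes called no member at an adjusted p under 0.05, while it called 0.588% of all genes higher and 0.444% lower. At an unadjusted p under 0.05, 14 mitotic and 4 replication members were higher and 0 were lower, beside 4.88% of all genes higher and 4.51% lower. Without Nusap1 and Foxm1, which could pass the filter only by being brighter in mutants, 12 of 18 mitotic members were higher at that level. The smallest adjusted p values were those of Cenpf (0.0546) and Kif20a (0.0632). In bulk tissue, more cells of a type and more RNA per cell cannot be told apart.

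The median ratio of the mitotic members was above that of the replication members, and single ratios of the classes overlapped. All 20 tested mitotic members and 13 of 14 tested replication members had a mean ratio above 0, as did 50.9% of all genes. A ratio above 0 in each of the 4 pairs was found for 14 of 20 mitotic and 2 of 14 replication members, against 7.75% of all genes, and no tested member was below 0 in all 4, against 7.32%. The sign was read before rounding, and the 14 include Cenpe and Foxm1, which each have a pair at 0.00. Over the 18 mitotic members above background in all 8 animals, the count was 12. The median ratio was 0.26 for tested mitotic members, 0.08 for tested replication members and 0.00 for all genes. Counting all members, tested or not, these medians were 0.21 over 29 mitotic and 0.08 over 15 replication members. Over the same 18 mitotic members it was 0.30. With the scanner software's own processed signals the mitotic median was 0.44. The members were chosen with earlier results of these data known, so these counts describe them and are not tested.

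**Figure D1:**
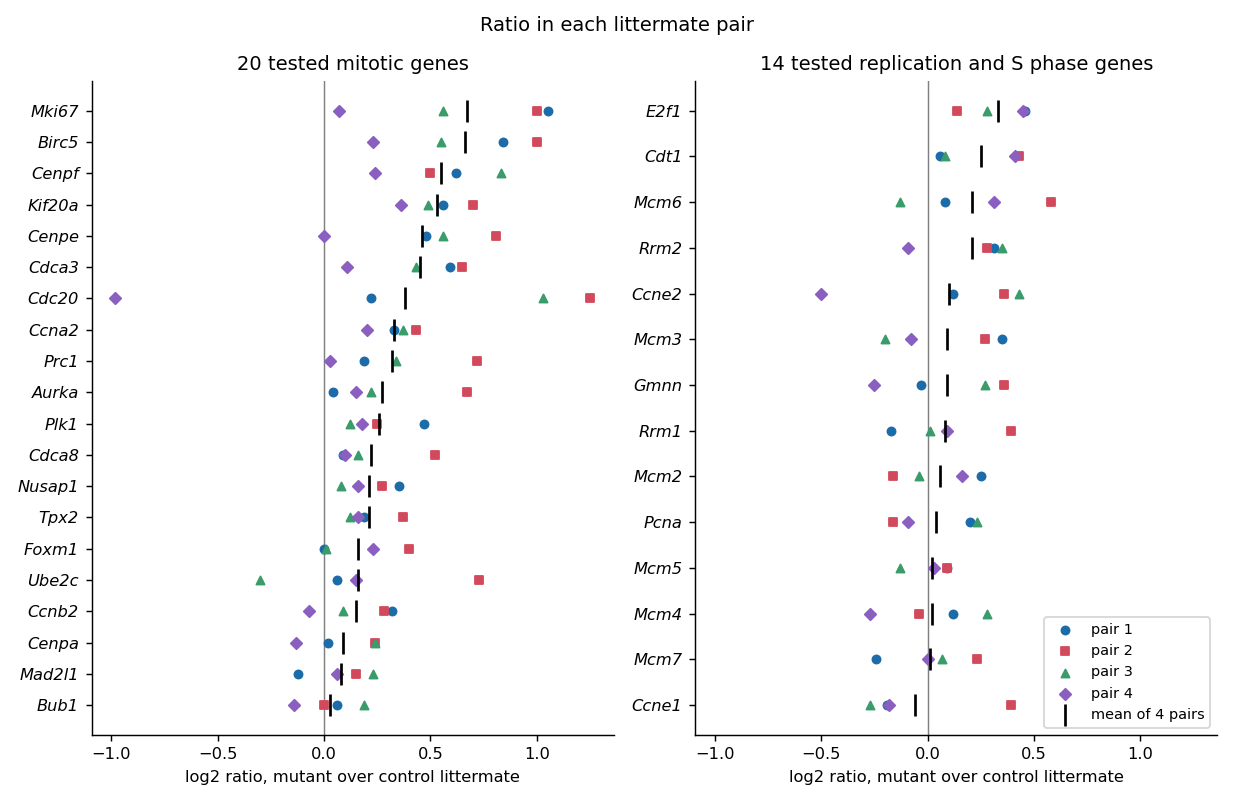
Log2 ratio of mutant over control littermate for the 20 mitotic and 14 replication members that passed the filter, with 1 marker for each of the 4 pairs and a bar for their mean, ordered by the mean. Mitotic means lie between 0.03 and 0.67 and replication means between -0.06 and 0.33, and pair 4 (diamonds) lies lowest for 12 of the 20 mitotic members.

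The class difference was present in each pair. The mitotic median was 0.27, 0.51, 0.23 and 0.13 in pairs 1 to 4. The replication median was 0.10, 0.28, 0.08 and -0.04. Mitotic minus replication was thus 0.17, 0.23, 0.15 and 0.17, although the medians themselves were highest in pair 2 and lowest in pair 4. Over all members, untested ones included, the difference was smaller, at 0.05, 0.10, 0.09 and 0.10. Pairs 2 and 4 had the same dye order, with the mutant in Cy3.

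**Figure D2:**
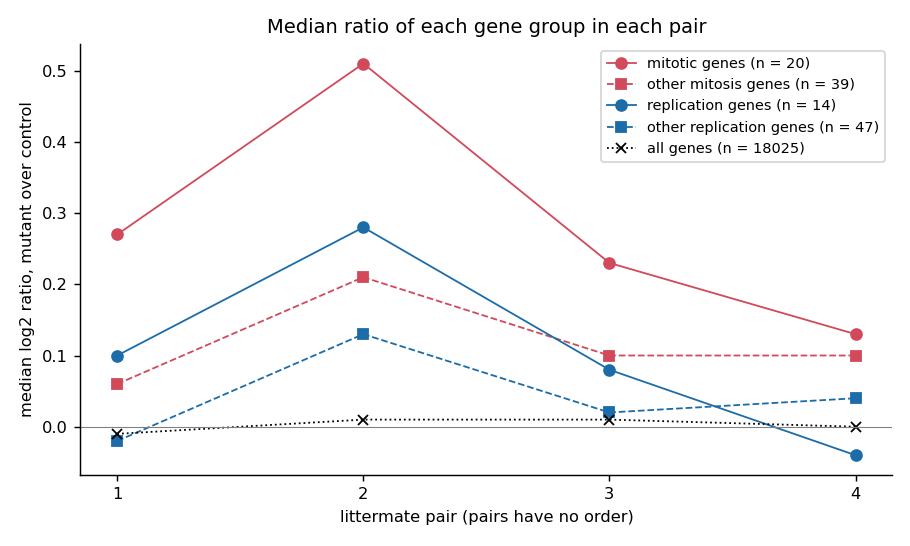
Median log2 ratio of each gene group (vertical axis) in each of the 4 littermate pairs (horizontal axis), for the tested members of both classes, for further mitosis and replication genes that are not members, and for all 18025 genes. The mitotic line runs from 0.13 to 0.51 and lies above the replication line, -0.04 to 0.28, in every pair.

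Mki67 encodes Ki-67, the chromosome surface protein used as a stain for cycling cells. Its level was 8.58, 8.60, 8.16 and 7.74 in the mutants of pairs 1 to 4 and 7.54, 7.60, 7.60 and 7.67 in their controls. The controls lay within 0.13 of each other, the mutants spread over 0.86, and every mutant was above every control. The ratios were 1.05, 1.00, 0.56 and 0.07, a mean of 0.67 ± 0.46 (1.59-fold, 95% interval 0.24 to 1.1, limma adjusted p = 0.244; probe on chromosome 7, 142881591 to 142881650, build mm9). A second, dimmer Mki67 probe was above background in 3 mutants and 0 controls. Its ratios were 0.55, 0.36, -0.01 and 0.03, and their size is uncertain so near background. The SD of 0.46 exceeded that of 97.2% of genes, and the mutant of pair 4 was the animal near control level.

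Birc5 encodes survivin, a subunit of the chromosomal passenger complex that corrects spindle attachments. The mutants stood at 8.76, 8.85, 8.53 and 8.22 and the controls at 7.92, 7.85, 7.98 and 7.99. Again the 4 controls were close together and the mutant of pair 4 was the lowest mutant, yet above all controls. The ratios were 0.84, 1.00, 0.55 and 0.23, a mean of 0.66 ± 0.34 (1.58-fold, limma adjusted p = 0.161; chromosome 11, 117716959 to 117717018, mm9).

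Cenpf, a kinetochore and nuclear matrix protein of late cycle stages, stood at 7.53, 7.66, 7.62 and 7.19 in mutants and 6.91, 7.16, 6.79 and 6.96 in controls. The groups did not overlap, though the lowest mutant and the highest control differed by little. Its ratios of 0.62, 0.50, 0.83 and 0.24 gave a mean of 0.55 ± 0.25 (limma adjusted p = 0.0546; chromosome 1, 191465934 to 191465993, mm9). A second, dimmer probe, above background on 1 array in each genotype, averaged -0.01. Cenpf is one of the genes with the CHR letters printed above. Among tested mitotic members with a window, the median ratio was 0.27 for the 11 with these letters and 0.21 for the 5 without. The ranges overlapped, and a link of the letters to the ratio was not tested.

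Kif20a, a kinesin of the central spindle needed for cytokinesis, had the most even ratios of these genes. The mutants stood at 7.71, 8.18, 7.90 and 7.62 and the controls at 7.14, 7.48, 7.41 and 7.26. The groups did not overlap. The ratios were 0.56, 0.70, 0.49 and 0.36, a mean of 0.53 ± 0.14 (limma adjusted p = 0.0632), and its second probe gave 0.48.

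Cenpe, the kinesin that carries chromosomes to the spindle equator, had levels of 8.54, 8.95, 9.01 and 8.41 in mutants and 8.05, 8.15, 8.44 and 8.41 in controls. In pair 4 the littermates did not differ, and the groups overlapped. Its ratios were 0.48, 0.81, 0.56 and 0.00 (mean 0.46 ± 0.34, limma adjusted p = 0.334; chromosome 3, 134936387 to 134936446, mm9). Cdca3, an adaptor for destruction of the mitosis inhibitor Wee1, had levels of 7.64, 7.65, 7.45 and 7.02 in mutants and 7.05, 7.0, 7.02 and 6.91 in controls. Its ratios of 0.59, 0.65, 0.43 and 0.11 had a mean of 0.45 ± 0.24 (limma adjusted p = 0.197; chromosome 6, 124783233 to 124783292, mm9). Only the mutant of pair 4 lay within the range of the Cdca3 controls. The other probes of Cenpe (0.01 and -0.04) and Cdca3 (0.03) were above background on 0 arrays.

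**Figure D3:**
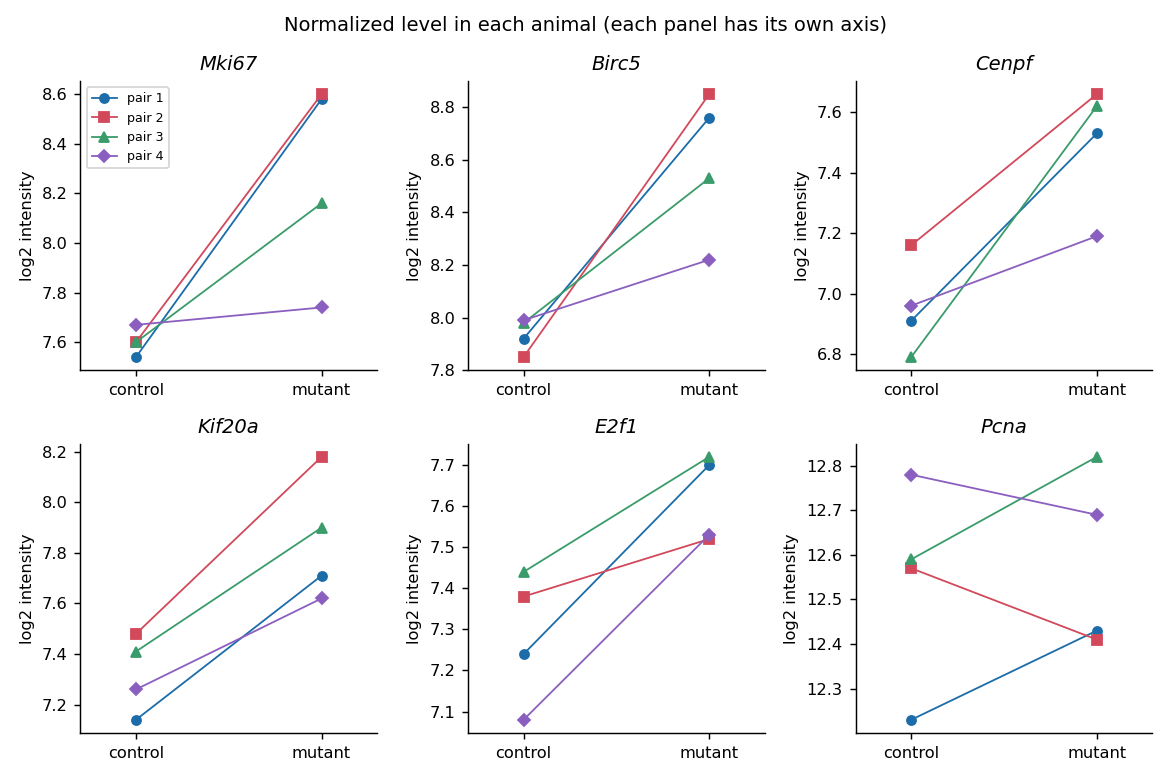
Normalized log2 intensity of 6 members in each of the 8 animals, with a line joining the control and the mutant of each pair and a separate vertical axis for each gene. For Mki67 the controls lie between 7.54 and 7.67 and the mutants between 7.74 and 8.60, while the lines of Pcna go up in pairs 1 and 3 and down in pairs 2 and 4.

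The other tested mitotic members had smaller ratios. The cyclins that drive mitotic entry stood at 0.33 ± 0.10 for Ccna2, above 0 in all pairs, and at 0.15 ± 0.18 for Ccnb2. Mitotic kinases stood at 0.27 ± 0.28 for Aurka, the spindle pole kinase, at 0.26 ± 0.15 for Plk1 and at 0.03 ± 0.14 for the checkpoint kinase Bub1. The Bub1 value comes from the brighter probe, and the other one gave 0.17. Spindle proteins were close to these, with 0.32 ± 0.29 for the midzone crosslinker Prc1, 0.21 ± 0.12 for Nusap1 and 0.21 ± 0.11 for the microtubule nucleator Tpx2. Cdca8, which with survivin forms the passenger complex, had 0.22 ± 0.20. The centromeric histone Cenpa (0.09 ± 0.18) and the checkpoint protein Mad2l1 (0.08 ± 0.15) were near 0. A second Mad2l1 probe, above background on all arrays, gave 0.14 and was above 0 in all 4 pairs. Foxm1, the transcription factor of the second wave, stood at 0.16 ± 0.19, and Ube2c, a ubiquitin-conjugating enzyme of the anaphase complex, at 0.16 ± 0.43. The limma adjusted p of these 13 members ran from 0.144 to 0.950. Levels did not overlap between genotypes for 5 mitotic members, Mki67, Birc5, Cenpf, Kif20a and Prc1, with the mutants above, against 2.16% of all genes in that direction and 1.81% in the other.

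Cdc20, the activator of the anaphase-promoting complex, was singled out after its values were seen. The mutants stood at 11.23, 11.17, 10.57 and 10.44 and the controls at 11.01, 9.92, 9.54 and 11.42. The control of pair 4 was the highest of the 8 animals, and its littermate was the lowest mutant. The ratios were 0.22, 1.25, 1.03 and -0.98 (mean 0.38 ± 1.01, 95% interval -0.54 to 1.3, limma adjusted p = 0.861), an SD above that of 99.8% of genes. The Cdc20 estimate was -0.18 without pair 2 and 0.94 without pair 4. These were the lowest and highest of 18 alternatives, of which 17 were above 0. Pair 4 in the fit without pair 2, and pair 2 in the fit without pair 4, was alone with its dye order. The dye term gave that pair as much weight as the other pairs together. Unlike Mki67 and Birc5, Cdc20 had a larger spread among controls (SD 0.89) than among mutants (SD 0.41).

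Of the 10 untested members, 9 were mitotic. Top2a, the DNA topoisomerase that untangles chromosomes, was above background on 0 arrays in either genotype with all 3 of its probes. The brightest of them had ratios of 0.16, 0.15, -0.10 and 0.11. Its promoter printed above holds the same elements as that of Mki67. Ccnb1, the main mitotic cyclin, was above background in 3 mutants and 0 controls with its brightest probe. The ratios of that probe were 0.13, 0.51, 0.49 and -0.05, and their size is uncertain so near background. Aurkb, Hmmr, Kif23 and Kif2c were above background on 0 arrays. Kif11 and Ttk were above background on 1 array in each genotype and Bub1b on 3. In replication, Cdc6, which loads the MCM helicase, was above background on 1 array in each genotype.

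Among replication members, the transcription factor E2f1 had the largest mean ratio. Its levels were 7.70, 7.52, 7.72 and 7.53 in mutants and 7.24, 7.38, 7.44 and 7.08 in controls, and the groups did not overlap. It was the 1 replication member for which this held. The ratios were 0.46, 0.14, 0.28 and 0.45, a mean of 0.33 ± 0.15 (limma adjusted p = 0.202; chromosome 2, 154386004 to 154386063, mm9). A second E2f1 probe, printed 10 times on each array, gave 0.12, 0.25, -0.03 and 0.33 (mean 0.17), with SDs between spots of 0.07 to 0.13. The probes of E2f1 thus differed in size, and in pair 3 also in sign.

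Licensing of replication origins was read from a loading factor and its inhibitor. Cdt1, which with Cdc6 loads the helicase, had levels of 10.56, 10.62, 10.32 and 10.41 in mutants and 10.49, 10.19, 10.24 and 10 in controls. The Cdt1 ratios were 0.06, 0.43, 0.08 and 0.41 (mean 0.25 ± 0.20, limma adjusted p = 0.193). The larger ones were those of pairs 2 and 4, with the mutant in Cy3, and the mean over pairs balances the dyes. With single pairs left out the Cdt1 estimate was 0.24 to 0.25. Gmnn, the inhibitor of Cdt1, had levels of 11.11, 11.38, 11.33 and 11.13 in mutants and 11.14, 11.02, 11.06 and 11.39 in controls. The Gmnn groups overlapped, with ratios of -0.03, 0.36, 0.27 and -0.25 (mean 0.09 ± 0.28, limma adjusted p = 0.908). Without pair 2 the Gmnn estimate was -0.07.

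The MCM helicase unwinds DNA at the fork and was measured through Mcm2 to Mcm7. Their mean ratios were 0.06 for Mcm2, 0.09 for Mcm3, 0.02 for Mcm4, 0.02 for Mcm5, 0.21 for Mcm6 and 0.01 for Mcm7. A second Mcm3 probe, above background on all arrays, averaged 0. For Mcm6 the levels were 9.63, 9.98, 10.25 and 8.53 in mutants and 9.54, 9.39, 10.37 and 8.22 in controls. Both animals of pair 4 were far below the rest. The Mcm6 ratios were 0.08, 0.58, -0.13 and 0.31 (mean 0.21 ± 0.31, limma adjusted p = 0.482). The mean level of the pair differed by 1.94 between pairs, more than for 99.8% of genes, against a median of 0.26 over all genes. Cdc20 (1.07, above 98.9% of genes) and Mcm3 (0.83, above 97.3%) came next. For these genes the spread between pairs was larger than the mean difference between genotypes.

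**Figure D4:**
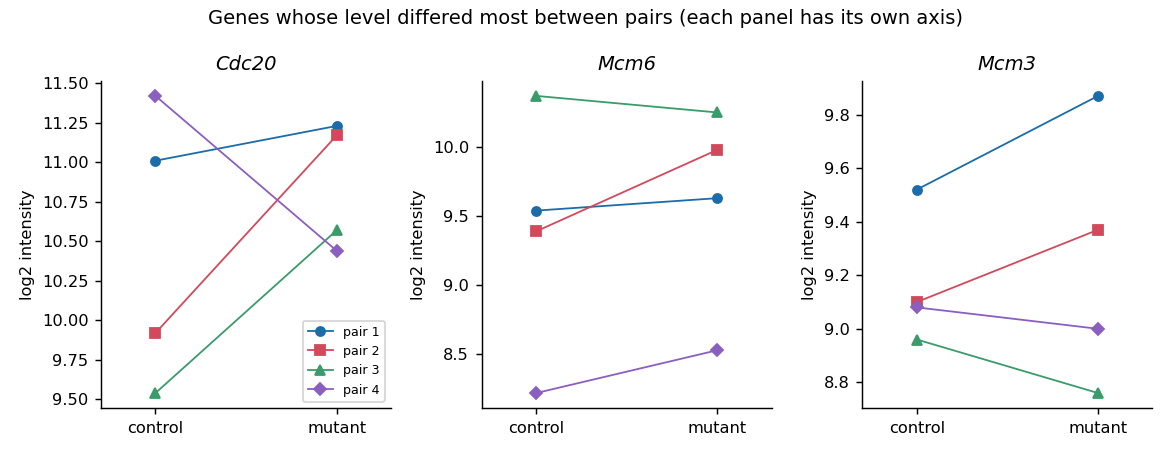
Normalized log2 intensity of Cdc20, Mcm6 and Mcm3 in each of the 8 animals, with control and mutant of a pair joined by a line and a separate axis for each gene. The lines of Mcm6 run side by side, with both animals of pair 4 at 8.22 and 8.53, while the pair 4 line of Cdc20 drops from 11.42 to 10.44.

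Pcna is the sliding clamp of the replication fork and its probe was printed 10 times on each array. Its levels were 12.43, 12.41, 12.82 and 12.69 in mutants and 12.23, 12.57, 12.59 and 12.78 in controls, which overlapped. The ratios were 0.20, -0.16, 0.23 and -0.09, with SDs between spots of 0.03 to 0.05, so the sign differed between pairs by more than the spot error. Pairs 1 and 3, above 0, had the mutant in Cy5 and pairs 2 and 4 had it in Cy3; the mean over pairs balances the dyes. The mean was 0.04 ± 0.20 (95% interval -0.10 to 0.19, limma adjusted p = 0.903; chromosome 2, 132075420 to 132075557, mm9).

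Ribonucleotide reductase, which makes deoxynucleotides, was measured through both subunits. Rrm2, the subunit tied to S phase, had levels of 7.51, 7.15, 7.04 and 6.92 in mutants and 7.20, 6.87, 6.70 and 7.02 in controls. The Rrm2 ratios were 0.31, 0.28, 0.35 and -0.09 (mean 0.21 ± 0.20, limma adjusted p = 0.506), alike in 3 pairs and below 0 in pair 4. Rrm1 stood at 0.08 ± 0.24, and the 95% intervals of Rrm2 (0.01 to 0.41) and Rrm1 (-0.11 to 0.28) overlapped. The E cyclins, which start S phase, straddled 0. Ccne2 had levels of 6.73, 6.90, 7.55 and 6.96 in mutants and 6.62, 6.54, 7.12 and 7.46 in controls. The Ccne2 ratios were 0.12, 0.36, 0.43 and -0.50 (mean 0.10 ± 0.42, limma adjusted p = 0.919), and its estimate was -0.11 without pair 2 and -0.03 without pair 3. In such fits the pair left alone with its dye order weighs more than each other pair. Ccne1, at -0.06 ± 0.31, was the 1 tested member with a mean below 0. Second probes, above background on all arrays, gave 0.05 for Ccne2 and -0.05 for Ccne1.

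Animals of the mutant group differed from each other more than controls did for most mitotic members. The SD of the level was larger among the 4 mutants than among the 4 controls for 16 of 20 tested mitotic members and for 5 of 14 tested replication members, against 56.6% of all genes. The median SD of mitotic members was 0.24 among mutants and 0.13 among controls, and over all genes it was 0.15 and 0.14. For Mki67 these SDs were 0.41 and 0.05, for Birc5 0.28 and 0.06, and for Cdca3 0.29 and 0.06. No test of this spread was made.

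**Figure D5:**
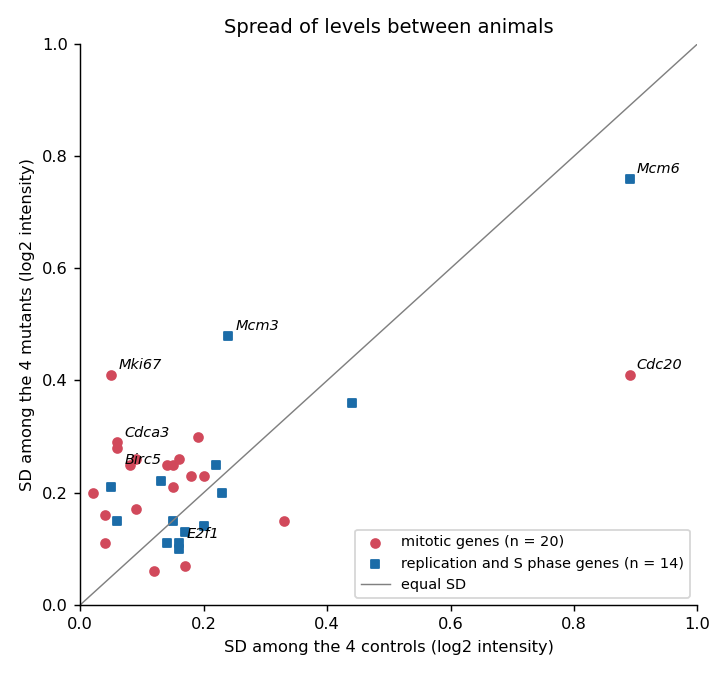
SD of the normalized log2 intensity among the 4 mutants (vertical axis) against the SD among the 4 controls (horizontal axis) for the 34 tested members, with a line of equality. Mki67, Birc5 and Cdca3 lie far above the line with control SDs of 0.05 to 0.06, and Cdc20 lies far below it.

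Pair 4 had the lowest ratio for 12 of 20 mitotic members, against 30.5% of all genes, and pair 2 had the highest for 13 of 20, against 28.7%. With pair 4 left out, the limma fit over 18049 genes called 7 of 20 mitotic members higher, beside 1.19% of all genes, and 0 members lower, beside 0.670% of all genes. These were Mki67 (0.90), Birc5 (0.85), Cenpe (0.66), Cenpf (0.61), Kif20a (0.61), Cdca3 (0.58) and Prc1 (0.49), with adjusted p values from 0.0119 to 0.0426. No replication member was called then, and the class medians were 0.36 and 0.15. That fit has 1 residual degree of freedom, and pair 4 was looked at after its values were known. Pair 2, which had the highest ratio for 13 of 20 mitotic members, was then alone with the mutant in Cy3. The dye term gave it as much weight as pairs 1 and 3 together, so the ratios without pair 4 are not plain means of pairs 1 to 3. Leaving out pair 1, 2 or 3 called 0 members. Without pair 2, where pair 4 had the weight of pairs 1 and 3 together, the class medians were 0.15 and 0.01.

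Genes of the same processes outside the set had smaller median ratios, although some single genes had larger ones than any member. Of 60 further mitosis genes, 39 were tested, 1 was called higher by limma and 0 lower, and the median ratio was 0.12. The called gene was Psrc1, a spindle protein that binds microtubules, with ratios of 1.15, 1.98, 0.89 and 1.49 (mean 1.38 ± 0.47, limma adjusted p = 0.00983; chromosome 3, 108190946 to 108191005, mm9). Only 2 of 4 controls were above background for it, so the size is uncertain, and its 2 other probes gave 0.63 and 0.29. Psrc1 stood at 2.82 with the processed signals and did not pass with the outlier flags applied after the background fit (adjusted p = 0.0574). The mitotic kinase Pbk had a ratio of 0.75 ± 0.32 (limma adjusted p = 0.110), with 2 of 4 controls above background and 1.82 with the processed signals, so its size is uncertain too. The kinetochore protein Spc25 stood at 0.43 ± 0.18 (limma adjusted p = 0.138). In all, 16 of the 39 were above 0 in all 4 pairs, against 7.75% of all genes. At an unadjusted p under 0.05, 10 were higher and 1 lower, against 4.88% and 4.51%. Psrc1 and Pbk are in the 16 and the 10, although they passed the filter only by being brighter in mutants. Neither could be fitted where both channels had to be above background on all arrays. The counts were not redone without such genes. Of 50 further replication genes, 47 were tested and none was called by limma in either direction, with 3 higher and 0 lower at an unadjusted p under 0.05. Their median ratio was 0.06, led by the thymidylate synthase gene Tyms (0.27 ± 0.30), the chromatin assembly subunit Chaf1b (0.19 ± 0.13) and the polymerase Pole (0.19 ± 0.20). CHR letters stood in 59.2% of the windows of the further mitosis genes and in 14.6% of those of the further replication genes.

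Upstream regulators were measured alongside. Of 18 genes of the E2F, RB and DREAM group, 16 were tested and none was called by limma, with 2 at an unadjusted p under 0.05 and a median ratio of 0.01. Those with the largest ratios were Rb1 (0.25 ± 0.11), E2f7 (0.20 ± 0.17) and E2f5 (0.18 ± 0.07). Of 13 genes for D cyclins, their kinases and inhibitors, 11 were tested and 1 was called. That was Ccnd1, cyclin D1, which links growth signals to the cycle and rose in all 4 pairs (1.24, 1.00, 0.65 and 1.04, mean 0.98 ± 0.24, limma adjusted p = 0.0241). Ccnd1 did not pass without pair 1 (limma adjusted p = 0.0543), with median centring (0.0601) or with the processed signals (0.0541). Ccnd2 had ratios of 1.48, 0.71, 0.47 and 1.23 (mean 0.97 ± 0.46, adjusted p = 0.122) and Ccnd3 had a mean of -0.36 ± 0.14 (adjusted p = 0.121). Pair 4, where Mki67 stood near control level, had a Ccnd1 ratio as large as that of pair 2.

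Markers of cell types that could hold dividing cells were read in the same fit. Of 9 granule neuron precursor markers, Atoh1 and Nhlh1 were not well above background and were untested. Hhip fell (-0.59 ± 0.13, limma adjusted p = 0.0211), while Gli2 was above 0 in all 4 pairs (0.36 ± 0.17, limma adjusted p = 0.11). Of the 7 tested ones, 3 had a mean above 0, with a median of -0.06. At an unadjusted p under 0.05, 1 was higher and 1 lower. Their summed level, in linear intensity, was 2946 to 3120 in mutants and 3072 to 3460 in controls. No marker was called among 10 of oligodendrocyte precursors (median -0.11), 12 of microglia (0.02) or 11 of endothelium and pericytes (-0.08). A mean ratio above 0 was found for 2, 6 and 0 of them, against 50.9% of all genes. Below 0 in all 4 pairs were 4, 0 and 1, against 7.32% of all genes. Above 0 in all 4 pairs were 1, 0 and 0, against 7.75%. At an unadjusted p under 0.05, 1 oligodendrocyte precursor marker was higher and 3 were lower, beside 4.88% and 4.51% of all genes. No marker of microglia or of endothelium and pericytes passed that level. Their summed levels were 14517 to 18369 in mutants against 15912 to 21528 in controls for oligodendrocyte precursors, 16671 to 22500 against 16483 to 18869 for microglia, and 15585 to 21475 against 16759 to 21328 for vessels. Of 10 immature glia markers, Tnc (2.19 ± 0.27), Fabp7 (1.06 ± 0.51) and Vim (0.92 ± 0.08) rose, with limma adjusted p values of 0.00431, 0.0171 and 0.00685. With the mean over its probes Tnc stood at 1.23. The median of the 10 was 0.20 and 8 were above 0, with 5 higher and 1 lower at an unadjusted p under 0.05. Their summed level was 74441 to 114161 in mutants against 34521 to 51495 in controls. In all such sums the brightest probes weigh most. Hhip did not pass without pair 1 (limma adjusted p = 0.140), without pair 3 (0.133), without the pairing (0.0856) or with the flags after the background fit (0.314), and Fabp7 did not pass without pair 3 (0.0591) or without the pairing (0.0747). The part of any of these cell types in the ratios of the mitotic members was not tested.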

How the data were processed

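The deposited files of the 4 arrays give linear intensities of each spot and its background in Cy3 and Cy5 as Agilent Feature Extraction 10.5.1.1 measured them, per the file headers, with probe positions in build mm9. They also hold a deposited log10 ratio of Cy5 over Cy3, and the series' value table holds the same log10 ratio turned to mutant over control (largest difference 4.84e-06). From the mean spot intensities, background was corrected with normexp (offset 50) in limma 3.58.1 under R 4.3.3. Spots with an outlier flag (143 to 248 per array) were left out before that step, an order chosen after these data had been seen. The offset draws ratios of dim probes towards 0. Ratios were normalized by loess within arrays, spots of a probe were averaged, and the brightest tested probe stood for a gene. Transcript accessions gave the symbols of 24844 probes, and 16330 kept the name in the array file. Genes were fitted with a dye and a genotype term and p-values were adjusted by Benjamini-Hochberg over 18025 genes, with 2 residual and 3.37 prior degrees of freedom. Levels of single animals are the channels after loess and quantile normalization of brightness between arrays. The pairing is that of littermates on 1 array, per the labels.

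Members and lists were chosen with earlier results of these data known. All members are named. Values by pair are given for called members, for Mki67, Top2a, Pcna and E2f1, and for the 6 tested members of each class with the largest absolute mean ratio. From each further list the called genes and the 3 with the largest absolute mean ratio are named, except 1 gene that is not reported here. Alternatives covered the background correction, the signal used, normalization, the filter, the choice of probe, the names, the dye term, the variance model, the pairing and each pair left out. The fit was tested on simulated data with known changes. Promoter windows are those of RefSeq. Figures were drawn with matplotlib 3.10.9.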

Additional observations from a re-analysis of the deposited data

Results flagged for a closer look

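A value far from the other 3 pairs was found for 3 of 34 tested members and 5 of 40 named genes of the further lists, judged by the gap of the extreme pair over the whole range against Dixon's limit for 4 values. Chance flags about 1 in 20 such groups, and 4.42% of all genes exceeded the limit here. Among members, the ratio of Cdca8 in pair 2 was 0.52 against 0.09 to 0.16 (gap 0.83), that of Ccne1 in pair 2 was 0.39 against -0.27 to -0.18 (gap 0.85), and that of Rrm2 in pair 4 was -0.09 against 0.28 to 0.35 (gap 0.85). Among other genes, E2f5 stood low in pair 2 (gap 0.87), the astroglial glutamate transporter gene Slc1a2 was least reduced in pair 4 (gap 0.88) and Vcan stood low in pair 3 (gap 0.93). The neutrophil genes S100a8 (2.70 in pair 1, gap 0.85) and S100a9 (2.80 in pair 1, gap 0.92) were high in the mutant of pair 1 only, and were below 0 in the other 3 pairs.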

How the results depend on the processing

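Over 18 alternatives, 23 of 34 tested members kept a ratio above 0, among them 17 of 20 mitotic members; Nusap1 and Foxm1 could not be fitted where both channels had to be above background on all arrays. Members called higher numbered 0 in the analysis as reported, 1 with scale normalization between arrays, 2 without the filter on dim probes, 2 with the mean over probes, 1 without the dye term, 1 with intensity trend and robust variances, and 0 to 7 with single pairs left out. Outside the fit without pair 4 these were Cenpf and Kif20a. All genes called numbered 106 higher and 80 lower. They were 50 and 32 with outlier flags applied after the background fit, 53 lower with the processed signals and with the value table, and 44 to 215 higher and 13 to 127 lower with single pairs left out. The mitotic median of 0.26 became 0.44 with the processed signals and with the value table. Mitotic minus replication, 0.18 from the means over pairs, became 0.35 with each of these and 0.13 without the filter; with single pairs left out it was 0.15 to 0.21. Ccne2 was at -0.11 without replicate 2 and -0.03 without replicate 3, and Gmnn at -0.07 without replicate 2; over the single pairs left out Ccne2 ran from -0.11 to 0.18 and Gmnn from -0.07 to 0.24. In a fit without 1 pair, the dye term gives the remaining pair of that dye order as much weight as the other pairs together. The causes were not tested. Ignoring the pairing (no replicate block) gave 96 genes higher and 66 lower, 0 members called and a mitotic median of 0.26. Members near background, such as Top2a, Aurkb and Hmmr, were not measurable at this signal.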

Other observations

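Markers of other cell classes were read in the same fit. Of 12 mature astroglia markers, limma called Aldh1l1 (1.5), Gfap (1.47) and Slc14a1 (0.98) higher and Slc1a2 (-0.57), S100b (-0.56) and Aqp4 (-0.54) lower. The median of the 12 was -0.40, with 4 higher and 8 lower at an unadjusted p under 0.05 and 7 lower in all 4 pairs, and their summed level was 250875 to 299250 in mutants against 311825 to 343179 in controls. The 3 lower calls were lost with the processed signals (limma adjusted p of 0.0650, 0.0624 and 0.0650), without the pairing (0.0542, 0.134 and 0.0867) and without pair 1 (0.181, 0.185 and 0.182) or pair 3 (0.165, 0.127 and 0.185), and Slc14a1 was lost without pair 1 (0.0556). Slc1a2 and Aqp4 were also lost with the flags after the background fit (0.178 and 0.0921) and with median centring (0.0914 and 0.0865), Slc1a2 with the mean over its probes (0.183) and Aqp4 without the dye term (0.0651). The oligodendrocyte precursor markers with the largest ratios were Vcan (0.36), Olig1 (-0.23) and Sox10 (-0.22), and those of microglia included Tyrobp (0.17) and Trem2 (0.15). The median of the 12 microglia markers was 0.05, 0.23, -0.02 and -0.12 in pairs 1 to 4, with 6 of 12 above 0 on average. Among vessel markers these were Pdgfrb (-0.16), Cldn5 (-0.15) and Esam (-0.14), and among neurons Eomes (-0.22), Slc17a7 (-0.19) and Itpr1 (0.14). Of the granule precursor markers, Sfrp1 averaged -0.49 ± 0.75 and Gli2 0.36 ± 0.17. Of the leukocyte list, Hbb-bt averaged 0.06, and Cd3g, Cd4, Cd8a and Cd79a were not well above background.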
